A study of Homo sapiens and Mus musculus with 76 samples.

Results

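IRS4, HAND1, CDH2, TSPAN6, NGFRAP1, PLS3, PFN2 and MID1 are 8 genes that mark HEK293T cells against DG-75 cells, out of 23571 human gene symbols counted. They were taken by symbol from the expression tables, and they had been chosen by their read counts, which were high in single HEK293T cells and near 0 in single DG-75 cells. HEK293T is a line from human embryonic kidney that carries the SV40 large T antigen, and DG-75 is a B cell line from a Burkitt lymphoma. The difference between these 2 lines chose the genes, so it is described here without a test, and the tests below use libraries from cell pools and purified RNA that the choice did not use.

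The study made 76 full-length cDNA libraries, 63 of them human, to compare the commercial SMART-Seq chemistry with Smart-Seq2 and its variants. Single HEK293T cells were processed with Smart-Seq2 (7 cells), with standard SMART-Seq (4 cells), and with protocol variants 1 (8 cells), 2 (8 cells), 3 (6 cells) and 4 (6 cells). What sets the 4 variants apart is not described in the labels. Smart-Seq2 was also applied to 7 single DG-75 cells. Further libraries were made from pools of 10, 50 and 100 HEK293T cells (3 libraries each). Others were made from HEK293T total RNA at 1 ng (3 libraries), 100 pg (3 libraries) and 10 pg (2 libraries). The protocol of the pool and RNA libraries is not stated here. All groups come from untreated cell lines, with the polyadenylated fraction read out. Cells were lysed in the buffer of one commercial low-input kit, while the RNA groups started from purified total RNA. The labels name no culture behind any library, so the cells of a single-cell group count as 1 sample, and p-values between pools or RNA inputs measure the spread between libraries, which may be technical.

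The libraries held 1875471 to 27876258 gene reads. A level below is a read count scaled to 1000000 gene reads per library (CPM) unless a sentence says RPKM. One Smart-Seq2 HEK293T cell, cell 2, stood apart, with 5285564 reads, 9477 genes detected at a common depth of 1800000 reads against 10631 to 11856 in the other 6 cells, and 12.4% of its reads on one gene, CASC5. That gene took 0.0015% to 17.2% of reads across the human libraries, with the maximum in cell 5 of variant 3. Summed levels of 12 B cell markers ran from 833 to 8950 CPM in DG-75 cells and from 0.0831 to 23.3 CPM in Smart-Seq2 HEK293T cells, where 8 of the 12 had no read. Summed levels of 12 markers used for HEK293T ran from 915 to 1813 CPM in Smart-Seq2 HEK293T cells. They ran from 199 to 556 CPM in variant 3 cells and from 17.4 to 310.1 CPM in DG-75 cells. Of these 12 markers, 8 were over 4-fold higher in HEK293T and 1 was over 4-fold higher in DG-75. Of 13752 genes of at least 1 CPM in either line, 18.1% were over 4-fold higher in HEK293T and 11.3% in DG-75. PAX8 had no read in the Smart-Seq2 HEK293T cells. T cell markers had no read in the Smart-Seq2 HEK293T cells.

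The 8 genes act in different parts of the cell. IRS4 is an adaptor that insulin and IGF receptors phosphorylate, and it recruits the lipid kinase PI3K. NGFRAP1, now called BEX3, belongs to a family of small X-linked adaptor proteins next to the TCEAL genes and binds the p75 neurotrophin receptor. HAND1 is a basic helix-loop-helix (bHLH) transcription factor of heart and trophoblast development that pairs with E proteins. CDH2 is N-cadherin, which joins neighbouring cells and is held to actin by catenins, and TSPAN6 is a tetraspanin of cell membranes. PLS3 (T-plastin) bundles actin filaments, PFN2 (profilin 2) binds actin monomers, and MID1 is a microtubule-bound ubiquitin ligase that acts on protein phosphatase 2A. Lymphoid cells use a sister gene of PLS3, LCP1 (L-plastin), in place of it, and they grow unattached, without cadherin junctions.

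The adaptor and the transcription factor had no read in DG-75. IRS4 ranged from 0.757 to 1182 CPM in the 7 Smart-Seq2 HEK293T cells, with a median of 630.4 CPM, and was at 0 reads in each of the 7 DG-75 cells. Summed over cells, IRS4 stood at 644 CPM (exact 95% Poisson interval 638 to 650) against a limit of 0.0818 CPM that 3 reads would give in the summed DG-75 cells, which is at least 7874-fold higher. HAND1 ranged from 10.4 to 1194 CPM with a median of 46.3 CPM and was also at 0 reads in DG-75, at least 3939.7-fold lower there by the same limit over the group. Each of these 7 HEK293T cells lay above every DG-75 cell for both genes, a separation that the choice of genes favoured. Cell 2 was the low cell for IRS4 and cell 1 the high cell for HAND1. Without cell 2 the summed IRS4 level was 691 CPM, and without cell 1 the summed HAND1 level was 87.9 CPM. These intervals cover counting error only, since the reads carry no molecular identifiers and PCR copies of one molecule are counted apart.

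The membrane genes had single reads to a few reads in DG-75. CDH2 ranged from 75.6 to 265 CPM in Smart-Seq2 HEK293T cells with a median of 156 CPM, and from 0 to 2.31 CPM in DG-75 cells with a median of 0.200 CPM. The highest DG-75 cell, cell 4, stayed below the lowest HEK293T cell, a separation that the choice of genes favoured. TSPAN6 ranged from 2.08 to 786 CPM with a median of 437 CPM, against 0 to 0.400 CPM in DG-75, where 3 reads were counted over all 7 cells. Without HEK293T cell 2, the lowest TSPAN6 level was 301 CPM.

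NGFRAP1 and the cytoskeletal genes were near 0 in DG-75. NGFRAP1 ranged from 98.6 to 1678 CPM with a median of 921 CPM, against 0 to 2.28 CPM. PLS3 ranged from 534 to 2528 CPM with a median of 1090.1 CPM, against 0 to 4.47 CPM. Both had reads in 6 of 7 DG-75 cells, 25 reads for NGFRAP1 and 51 for PLS3. PFN2 ranged from 111 to 741 CPM with a median of 549.5 CPM, against 0 to 0.631 CPM in DG-75. MID1 ranged from 30.6 to 622 CPM with a median of 252 CPM, against 0 to 0.447 CPM. In all 4 genes the groups of cells did not overlap. The genes were chosen for being high in one line and near 0 in the other, which favours such a separation. No share of all genes separated in this way is given, so nothing particular to these genes is read from it.

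**Figure D1:**
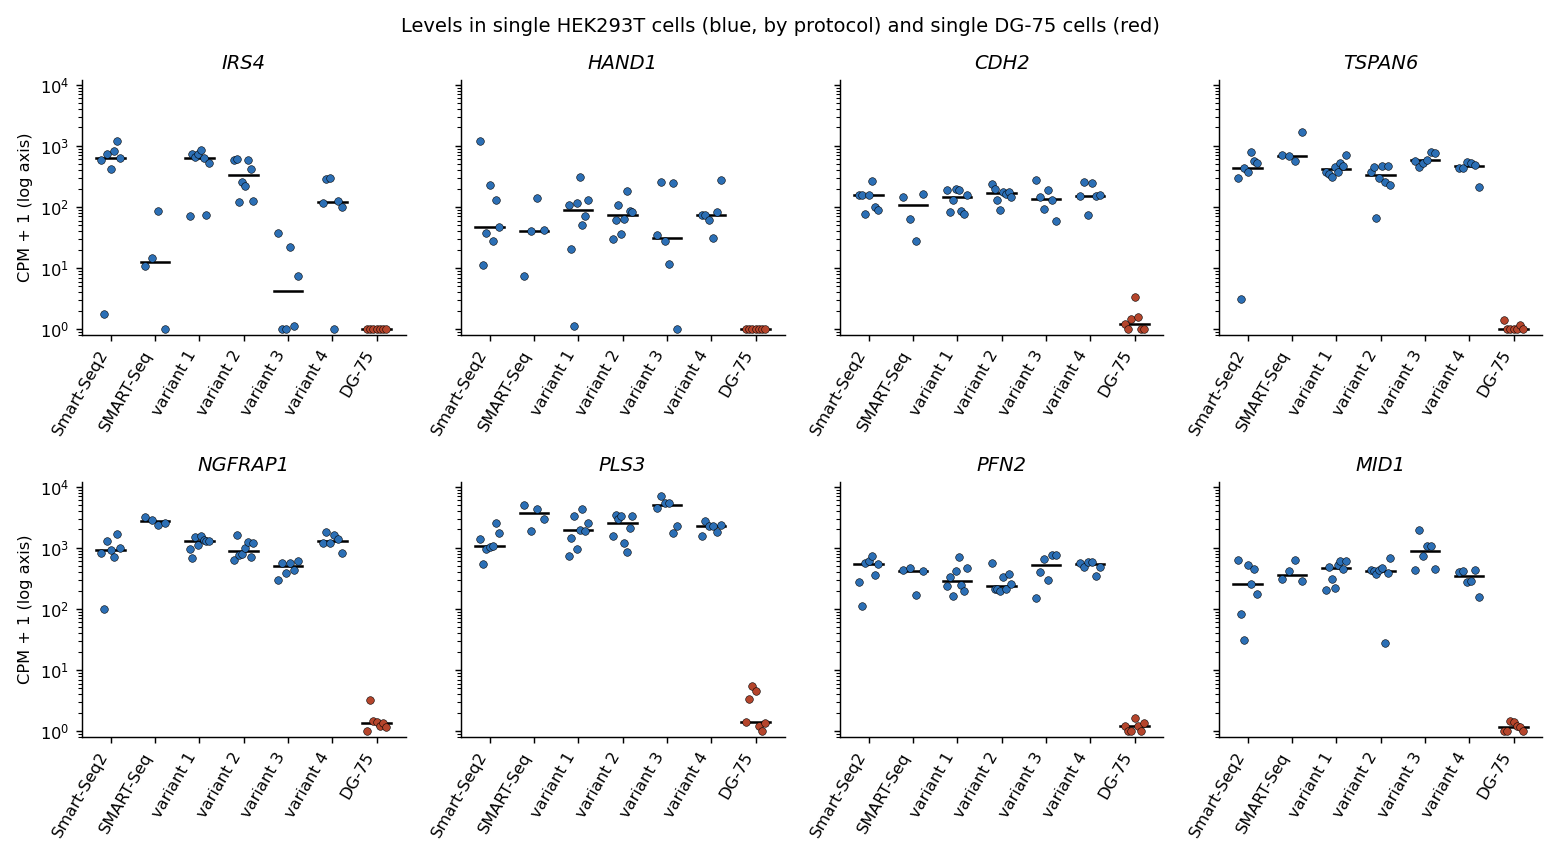
Each point is 1 cell, with the level plus 1 CPM on a log axis, one panel per gene, for the 6 HEK293T protocols and DG-75. DG-75 cells lie at 0 to 4.47 CPM in every panel, while IRS4 and HAND1 spread over several orders of magnitude among HEK293T cells.

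All 8 genes were over 4-fold higher in summed Smart-Seq2 HEK293T cells than in summed DG-75 cells, where 14.7% of 17304 genes were over 4-fold higher; the choice of genes used this contrast and nothing is read from the count. The log2 ratios, with 1 CPM added to both sides, were 9.33 for IRS4, 9.15 for NGFRAP1, 9.13 for PLS3, 8.67 for TSPAN6, 8.65 for PFN2, 8.34 for HAND1, 8.23 for MID1 and 6.66 for CDH2. Among 4589 genes of at least 50 CPM in the Smart-Seq2 HEK293T cells, with reads in at least 6 of the 7, IRS4 held rank 2, NGFRAP1 rank 3, PLS3 rank 4 and CDH2 rank 53 by that ratio. BEX4, a relative of NGFRAP1, held rank 11 with a log2 ratio of 8.05.

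The presence of the genes per cell was compared at a fixed depth of 1800000 gene reads. CDH2, TSPAN6, NGFRAP1, PLS3, PFN2 and MID1 had a read in 39 of 39 HEK293T cells at that depth, HAND1 in 37 and IRS4 in 34. At full depth HAND1 had a read in 38 of 39 cells and IRS4 in 35. DG-75 cells gave a read at the fixed depth in 5 of 7 cells for NGFRAP1 and for PLS3, in 4 for CDH2, in 3 for PFN2 and for MID1, in 1 for TSPAN6 and in none for IRS4 or HAND1; at full depth these were 6, 6, 4, 4, 4, 2, 0 and 0 of 7. IRS4 and HAND1 were thus the 2 genes with no read in any DG-75 cell, and the 2 that some HEK293T cells lacked. NGFRAP1 and PLS3, the most abundant of the 8, had reads in most cells of both lines.

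The sister gene LCP1 had the opposite pattern to PLS3. LCP1 ranged from 39.8 to 1435 CPM in DG-75 with a median of 956 CPM, and 31 of 39 HEK293T cells had no LCP1 read. The other 8 HEK293T cells held 0.0359 to 209 CPM, and the cell with 209 CPM, cell 3 of SMART-Seq, had 4323 CPM of PLS3 as well. DG-75 cell 7, with 39.8 CPM, was the low cell for LCP1 and held 0.338 CPM of PLS3, within the range of the other DG-75 cells. The third plastin, PLS1, stood at 52.9 CPM summed in Smart-Seq2 HEK293T cells and 9.73 CPM in DG-75. PFN1, the common profilin, overlapped between the lines, at 359 to 828 CPM in Smart-Seq2 HEK293T cells and 716 to 1110.0 CPM in DG-75.

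The relatives of NGFRAP1 followed it. BEX2 and BEX4 had reads in all 39 HEK293T cells and none in DG-75, with summed levels of 107 and 265 CPM in Smart-Seq2 cells, and BEX1 had reads in 37 of 39 cells and none in DG-75. For IRS4 the other 2 adaptors were low in both lines, with summed levels of 3.20 CPM for IRS1 in HEK293T and 7.28 CPM in DG-75. IRS2 stood at 3.20 and 10.1 CPM. CDH1 (E-cadherin) stood at 1.43 CPM in Smart-Seq2 HEK293T cells and at 0 in DG-75, HAND2 at 2.24 and 0.0273 CPM, and MID2 at 8.99 and 0 CPM.

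**Figure D2:**
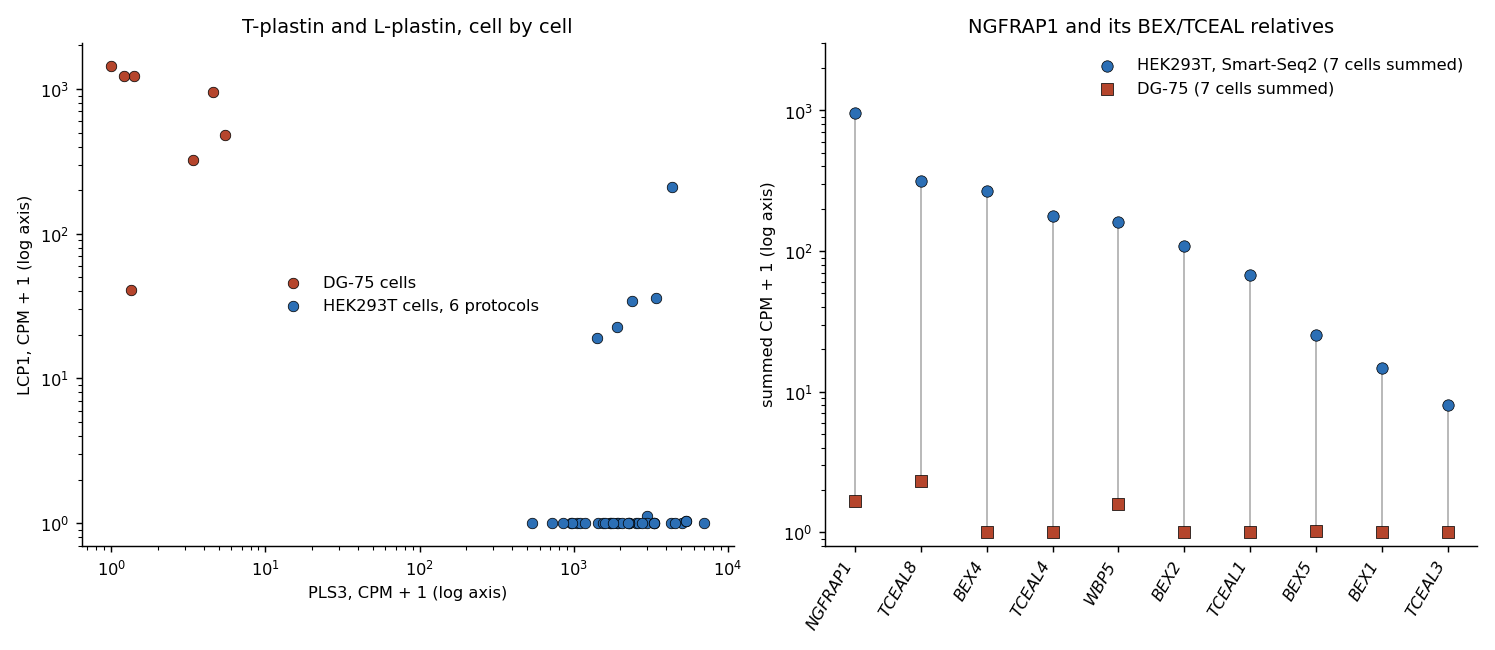
The left panel sets PLS3 against LCP1 in each single cell, both as CPM plus 1 on log axes, and the right panel gives summed levels of NGFRAP1 and its BEX and TCEAL relatives in the 2 lines. DG-75 cells lie at high LCP1 and low PLS3, and 31 of 39 HEK293T cells lie at 0 LCP1.

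Lists of related genes were counted beside all 13752 genes of at least 1 CPM in either line, of which 18.1% were over 4-fold higher in HEK293T and 11.3% in DG-75. All 9 BEX and TCEAL genes of at least 1 CPM in either line were over 4-fold higher in HEK293T, with a median log2 ratio of 6.64, against a median of 0.18 over all these genes. TCEAL8 stood at 315 CPM in HEK293T and 1.31 CPM in DG-75, and TCEAL4 at 176 and 0 CPM. Of 9 actin-bundling genes 6 were over 4-fold higher in HEK293T and 1, LCP1, in DG-75. Of 9 cadherins and catenins 4 were higher in HEK293T and none in DG-75, with CTNNA1 (alpha-catenin) at 253 and 19.2 CPM.

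In the other lists of related genes some genes were higher in each line, where 18.1% of all genes were higher in HEK293T and 11.3% in DG-75. Nothing particular to these lists is read from the counts. Of 10 actin-monomer genes 3 were over 4-fold higher in HEK293T and 2 in DG-75, and of 10 MID1 partners 3 and 1 were. Of 24 tetraspanins 9 were over 4-fold higher in HEK293T and 5 in DG-75, among them the leukocyte tetraspanins CD37 (0 and 139.9 CPM) and CD53 (0.10 and 198 CPM). Of 21 genes of insulin receptor signalling 4 (19.05%) were higher in HEK293T and 2 (9.52%) in DG-75, near the shares over all genes. PIK3CD, the leukocyte PI3K subunit, stood at 1.42 CPM in HEK293T and 101 CPM in DG-75. Of 11 bHLH genes 3 and 2 were higher, with TCF4 at 12.1 and 222 CPM and ID4 at 89.6 and 0.03 CPM. These lists were drawn up with earlier results of these data known, and the genes named here from them were picked after their values were seen.

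Of the 8 genes 5 lie on chromosome X (IRS4, TSPAN6, NGFRAP1, PLS3 and MID1), which is 62.5%, against 3.31% of 13752 genes of at least 1 CPM in either line and 5.89% of the 2495 that were over 4-fold higher in HEK293T. The 8 genes were chosen with these data known, so nothing is read from that share. HAND1 lies on chromosome 5, CDH2 on 18 and PFN2 on 3. The RefSeq transcripts matched to the genes, whose lengths need not be those used by the authors for counting, differ in length and GC content. IRS4 has 1 exon, 3928 bases and 56.0% GC, and HAND1 has 2 exons, 1738 bases and 57.4% GC. NGFRAP1 is the shortest at 921 bases with 53.2% GC, PLS3 has 3280 bases and 38.96% GC, and TSPAN6 has 2206 bases and 39.6% GC. MID1 is the longest at 6463 bases with 43.0% GC.

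Promoter windows were taken from RefSeq on GRCh38.p14, covering 250 bases before to 50 bases after each gene's outermost listed start. IRS4 and PLS3 have 2 listed starts each, NGFRAP1 has 3 and LCP1 has 1. CpG counts and matches below hold for the outermost start only, and windows at the other starts were not examined. The expression tables use hg19, so no coordinate is shared between them. Windows were found for 7 of the 8 genes. Shown here are IRS4 and NGFRAP1, the genes that moved farthest in each direction between pools and RNA, and the plastin pair whose levels divide the lines. IRS4 is at chrX:108736514-108736813 on the minus strand, NGFRAP1 at chrX:103376073-103376372 on the plus strand, PLS3 at chrX:115560924-115561223 on the plus strand and LCP1 at chr13:46182128-46182427 on the minus strand. Each is written 5′ to 3′ on the strand of its gene. Capitals mark TATAAA (the TATA box core), CCAAT (the CCAAT box) and GGGCGG (the GC box) on either strand, so that a match on the other strand appears as its reverse complement.
IRS4: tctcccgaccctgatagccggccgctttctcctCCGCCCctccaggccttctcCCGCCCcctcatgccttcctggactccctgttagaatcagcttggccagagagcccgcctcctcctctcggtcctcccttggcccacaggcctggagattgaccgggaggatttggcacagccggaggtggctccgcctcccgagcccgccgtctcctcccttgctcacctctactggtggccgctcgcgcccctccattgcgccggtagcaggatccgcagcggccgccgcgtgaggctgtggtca
NGFRAP1: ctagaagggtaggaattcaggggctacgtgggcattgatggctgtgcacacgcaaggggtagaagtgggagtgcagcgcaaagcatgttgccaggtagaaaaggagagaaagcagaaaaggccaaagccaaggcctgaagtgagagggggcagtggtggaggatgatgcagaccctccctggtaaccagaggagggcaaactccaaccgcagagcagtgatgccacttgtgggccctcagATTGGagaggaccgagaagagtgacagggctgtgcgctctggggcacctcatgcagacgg
PLS3: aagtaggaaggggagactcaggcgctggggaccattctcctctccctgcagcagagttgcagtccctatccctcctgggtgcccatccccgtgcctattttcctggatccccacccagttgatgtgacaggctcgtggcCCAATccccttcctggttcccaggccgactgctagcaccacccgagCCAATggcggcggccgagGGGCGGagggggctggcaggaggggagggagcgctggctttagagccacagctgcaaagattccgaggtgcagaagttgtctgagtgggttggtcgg
LCP1: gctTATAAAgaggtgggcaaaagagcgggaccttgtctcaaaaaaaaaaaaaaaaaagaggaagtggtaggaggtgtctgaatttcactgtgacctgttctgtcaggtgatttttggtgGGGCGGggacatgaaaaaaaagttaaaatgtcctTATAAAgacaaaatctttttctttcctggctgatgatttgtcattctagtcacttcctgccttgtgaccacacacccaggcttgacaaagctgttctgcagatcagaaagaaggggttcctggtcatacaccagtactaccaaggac

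The IRS4 window had 23 CpG and 68.3% GC, against a median of 14 CpG and 58.7% GC over 35116 promoter windows, with GGGCGG beginning 217 and 197 bases before the start. NGFRAP1 had 7 CpG and a CCAAT match 10 bases before the start. PLS3 had 12 CpG, with CCAAT at 111 and 65 bases and GGGCGG at 47 bases before the start. LCP1 had 2 CpG and 42.7% GC, with TATAAA at 247 and 97 bases and GGGCGG at 131 bases before the start. No match overlapped another in these 4 windows. TATAAA is held by 11.53% of all windows, CCAAT by 34.61% and GGGCGG by 44.95%.

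The protocol of a single HEK293T cell went with the level of IRS4 and PLS3. IRS4 was at 9.94, 13.6, 84.3 and 0 CPM in the 4 SMART-Seq cells and at 36.2, 0, 0, 21.1, 0.126 and 6.42 CPM in the 6 variant 3 cells. It ranged from 70.6 to 844 CPM (median 644 CPM) in variant 1, from 119 to 606 CPM (median 332 CPM) in variant 2 and from 0 to 301 CPM (median 119.8 CPM) in variant 4. The SMART-Seq and variant 3 cells were low, but Smart-Seq2 cell 2 at 0.757 CPM lay among them, so the groups overlapped. The log2 ratio of summed levels to Smart-Seq2 was −4.43 for SMART-Seq, −5.83 for variant 3, −2.15 for variant 4, −0.79 for variant 2 and −0.25 for variant 1.

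PLS3 went the other way. It stood at 5068, 1904, 4323 and 2978 CPM in the SMART-Seq cells, and at 4541, 7022, 5353, 5331, 1748 and 2287 CPM in the variant 3 cells. Variants 1, 2 and 4 had medians of 1926, 2538 and 2257 CPM. The log2 ratios to Smart-Seq2 were 1.41 for SMART-Seq, 1.93 for variant 3 and 0.67 to 0.84 for the other variants, and each group overlapped the Smart-Seq2 cells. MID1 was also high in variant 3, at 438 to 1951 CPM with a median of 899.6 CPM and a log2 ratio of 1.65.

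NGFRAP1 was the one gene of the 8 with a protocol whose cells all lay outside the Smart-Seq2 cells. The 4 SMART-Seq cells held 3199.7, 2818, 2407 and 2593 CPM, above the Smart-Seq2 maximum of 1678 CPM, with a log2 ratio of 1.51. The share of all genes with such a separation is not given, so nothing particular to NGFRAP1 is read from it. Variant 3 cells held 291 to 599 CPM, with a log2 ratio of −0.98 and overlapping cells. TSPAN6 stood at 702, 681, 561 and 1699 CPM in SMART-Seq, with a log2 ratio of 1.09. CDH2 and PFN2 differed least, with log2 ratios from −0.53 to 0.23 and from −0.68 to 0.07. The median over all genes was −0.28 for SMART-Seq and −0.39 for variant 3, and within 0.02 of 0 for the other variants.

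HAND1 was lower in all 5 other protocols by summed levels, with log2 ratios from −2.39 to −1.55, but that rested on 1 Smart-Seq2 cell of 1194 CPM. Without it, the ratio was −0.52 for SMART-Seq, 0.31 for variant 1, −0.25 for variant 2, 0.00 for variant 3 and 0.25 for variant 4. On the median cell it was −0.20 for SMART-Seq, 0.93 for variant 1, 0.64 for variant 2, −0.58 for variant 3 and 0.62 for variant 4.

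Of the 8 genes, 2 were over 4-fold apart from Smart-Seq2 in SMART-Seq (22.7% of all genes), 0 in variant 1 (2.32%), 1 in variant 2 (3.19%), 1 in variant 3 (27.0%) and 1 in variant 4 (4.33%). They were IRS4 and HAND1 in SMART-Seq, HAND1 in variant 2 and IRS4 in variants 3 and 4, and all of them were lower than in Smart-Seq2. Depth and the share of reads on CASC5 differed between these groups, and their part in the ratios was not tested.

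**Figure D3:**
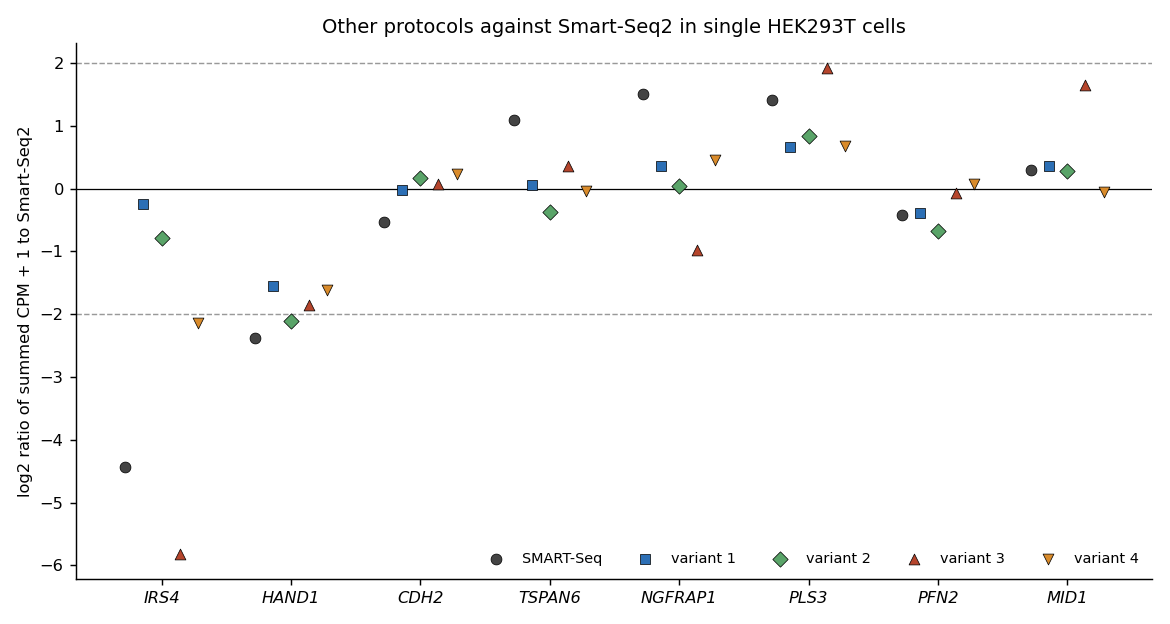
For each gene, points give the log2 ratio of summed CPM plus 1 in each of 5 protocols to Smart-Seq2, all in single HEK293T cells, and dashed lines mark a 4-fold difference. IRS4 lies farthest below in SMART-Seq at −4.43 and variant 3 at −5.83, and PLS3 lies above 0 in all 5.

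The 8 genes differed in how evenly they were spread over cells of one protocol. The SD of log2(CPM + 1) between cells was 3.29 for IRS4 in Smart-Seq2, higher than in 99.8% of genes of at least 50 CPM there, whose median SD was 0.84. Each cell was also left out in turn, an alternative added after the data were seen. That value rested on cell 2, without which the SD of IRS4 was 0.50, above 37.3% of genes. IRS4 also had an SD of 3.09 in variant 4, where cell 4 had no read, and 0.76 without that cell. In variant 1 its SD was 1.51, and 1.24 to 1.63 with a cell left out. HAND1 had an SD of 2.48 in variant 1, above 99.6% of genes, and 1.21 without cell 3, still above 91.5% of genes. In the other protocols its SD ran from 0.84 in variant 2 to 2.99 in variant 3. NGFRAP1 had an SD of 1.34 in Smart-Seq2, above 74.3% of genes, and 0.46 without cell 2; it was 0.18 in SMART-Seq and 0.40 to 0.48 in the variants. CDH2 had SDs from 0.42 to 1.19. An SD of 1 on this scale is a factor of 2 between cells.

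The 8 genes hardly varied together between cells. Over 39 HEK293T cells, with each protocol's mean removed, the 28 pairs had a median Pearson correlation of 0.13, and the highest was 0.77, for TSPAN6 with NGFRAP1. Without Smart-Seq2 cell 2 that pair fell to 0.39, the median was 0.02 and the highest was 0.46, for PLS3 with MID1. The cells differ in depth and each is scaled to its own total, and these correlations include both.

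Per length of transcript, NGFRAP1 was the highest of the 8. In the Smart-Seq2 cells it stood at 1258 ± 674 RPKM (SD, n = 7 cells), followed by PLS3 at 369.8 ± 179.7 RPKM, PFN2 at 248 RPKM, TSPAN6 at 205 RPKM, IRS4 at 159 RPKM and HAND1 at 136 RPKM. MID1 at 70.1 RPKM and CDH2 at 33.1 RPKM were last. NGFRAP1 exceeded PLS3 by more than the SD between cells, and below PLS3 each gene differed from the next in this order by less than the larger of their SDs. In 1 ng of RNA the order was NGFRAP1, PLS3, IRS4, TSPAN6, PFN2, MID1, HAND1 and CDH2, and IRS4 stood at 215 RPKM. In pools of 100 cells IRS4 was last, at 13.6 RPKM. For MID1 the ratio of CPM to RPKM implied lengths from 2978 to 6627 bases between libraries, so its RPKM levels are not on one length and are less certain than the rest.

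Pools of cells and purified RNA from the same line gave different levels of the same genes. In the pools, fewer cells expressing a gene and less of its RNA per cell cannot be told apart. The pools started from lysed cells and the RNA groups from purified total RNA. The part of that difference in the levels was not tested. IRS4 was at 44.8, 45.1 and 72.7 CPM in the 3 pools of 100 cells and at 635, 1025 and 897 CPM in the 3 libraries of 1 ng RNA. NGFRAP1 was at 3563, 3380.2 and 4076 CPM in the pools and at 1554, 1259 and 1223 CPM in the RNA. The groups did not overlap for either gene, and the pools were low for IRS4 and high for NGFRAP1.

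IRS4 and NGFRAP1 were at opposite ends, and the other 6 genes lay between them. By edgeR's quasi-likelihood test with Benjamini-Hochberg adjustment, IRS4 fell in 100 cells against 1 ng RNA by 3.74 on the log2 scale (SE 0.22, adjusted p 1.91e-10) and NGFRAP1 rose by 1.67 (SE 0.15, adjusted p 3.25e-08). PLS3 rose by 1.00 (SE 0.15, adjusted p 1.45e-05), from 2442, 2039.8 and 2081 CPM to 3951, 3971 and 3268 CPM. TSPAN6 rose by 0.89 (SE 0.17, adjusted p 1.5e-04), from 439, 391 and 413 CPM to 713, 714 and 533 CPM. The 3 pools of PLS3 and of TSPAN6 all lay above the 3 RNA libraries.

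HAND1, CDH2 and MID1 fell. HAND1 went from 98.9, 137 and 122.7 CPM in RNA to 39.3, 37.4 and 50.4 CPM in pools, a log2 change of −1.26 (SE 0.19, adjusted p 1.9e-05). CDH2 went from 200.5, 209.8 and 183 CPM to 83.3, 89.1 and 60.9 CPM, a log2 change of −1.12 (SE 0.19, adjusted p 5.52e-05). MID1 changed by −0.39 (SE 0.16, adjusted p 0.0391), from 394, 342 and 380.3 CPM to 249.9, 246 and 229 CPM, and PFN2 by 0.29 (SE 0.16, adjusted p 0.134), which did not pass. The RNA and pool libraries did not overlap for HAND1, CDH2 or MID1.

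Thus 3 of the 8 genes were called higher and 4 lower, where 62.7% of 11487 genes tested were called, 29.7% higher and 33.1% lower, and in 66.6% of genes the libraries of the 2 groups did not overlap. With library totals in place of TMM factors the median over all genes moved from −0.03 to −0.26 and the split of all calls from 3406 higher and 3802 lower to 2501 and 4535, and no call of the 8 was lost. After the trend of log2 change on GC content and length was removed, IRS4 was at −2.44 and NGFRAP1 at 0.86, and the calls of TSPAN6 at 0.05 (adjusted p 0.701) and MID1 at −0.23 (adjusted p 0.0887) were lost; MID1 was also lost in 9 other alternatives, DESeq2 and the omission of 1 of 4 libraries among them. Of the 100-cell libraries, 1 and 2 were close to each other, with a chi-square per gene of 1.81 against 20.8 and 20.5 for library 3 with them.

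**Figure D4:**
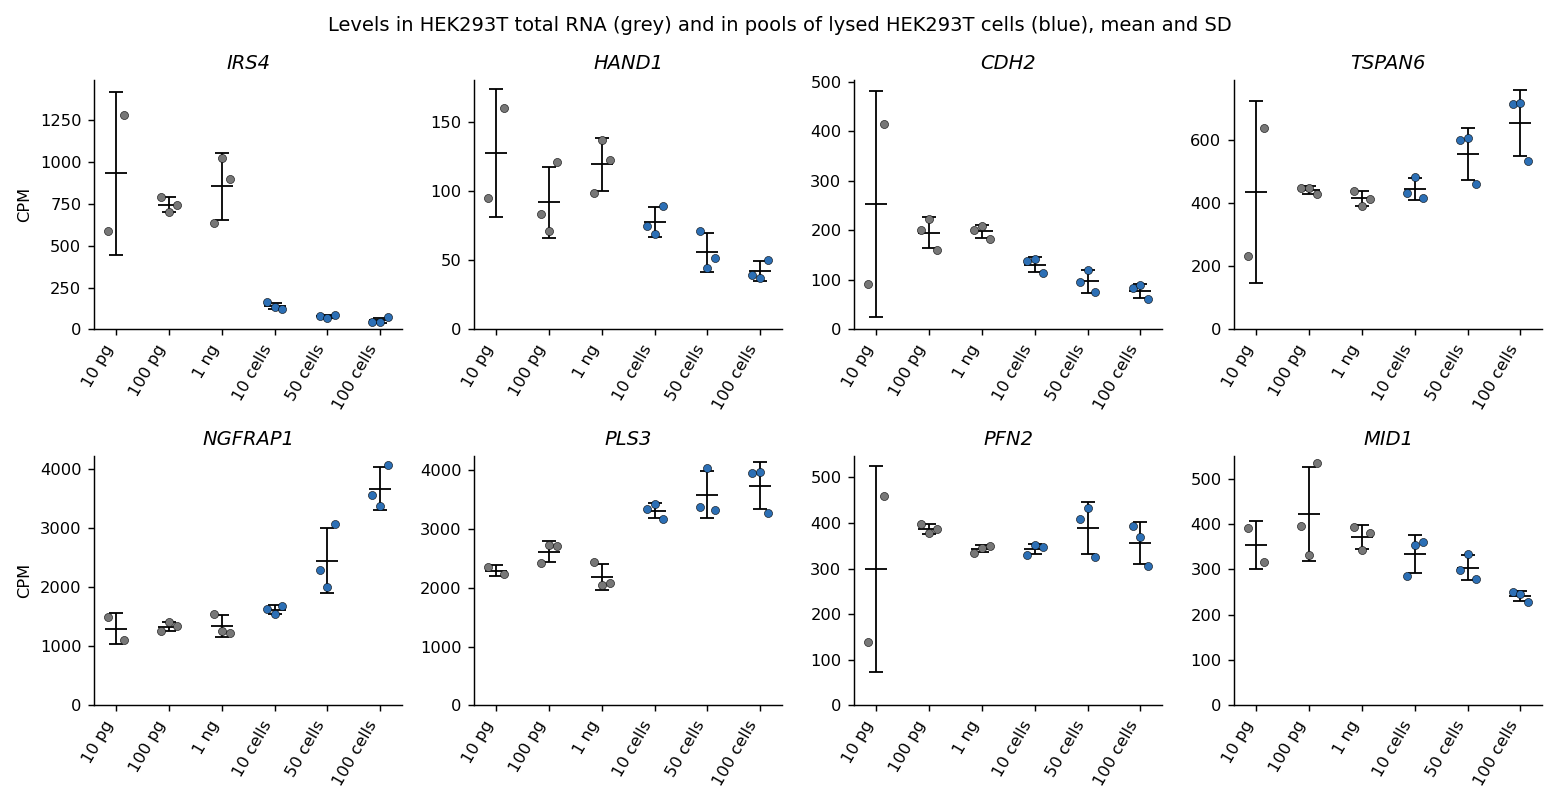
Each point is a library of HEK293T RNA (1 ng, 100 pg, 10 pg) or of a pool of 10, 50 or 100 cells, with the mean and SD of its group in CPM on a linear axis that starts at 0. IRS4 runs from 744 ± 43.2 CPM in 100 pg of RNA to 54.2 ± 16.1 CPM in pools of 100 cells, and NGFRAP1 from 1336 ± 77.2 to 3673 ± 361 CPM.

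In the smaller input pair IRS4 again changed most of the 8, and CDH2 and PLS3 were also called. IRS4 was at 162, 132 and 124 CPM in pools of 10 cells and at 787, 701 and 744 CPM in 100 pg of RNA, a log2 change of −2.44 (SE 0.13, adjusted p 2.13e-07 by edgeR's quasi-likelihood test with Benjamini-Hochberg adjustment). CDH2 fell by 0.59 (SE 0.16, adjusted p 0.0198) and PLS3 rose by 0.32 (SE 0.08, adjusted p 0.0111). NGFRAP1 changed by 0.26 (adjusted p 0.0511), HAND1 by −0.26 (adjusted p 0.463), MID1 by −0.36 (adjusted p 0.160), PFN2 by −0.20 (adjusted p 0.232) and TSPAN6 by −0.01 (adjusted p 0.947), none of which passed. The 3 calls of 8 stand against 19.3% of 11671 genes called. The CDH2 call was lost when 1 of 4 libraries was left out, with log2 changes from −0.63 to −0.48, and the PLS3 call was lost with the GC and length trend removed, at 0.04 (adjusted p 0.829), where PFN2 at −0.50 and TSPAN6 at −0.52 were called lower.

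The number of cells in a pool went with the levels of the same genes. NGFRAP1 rose from 1629, 1550.1 and 1693 CPM in 10 cells to 2290.3, 1998 and 3068 CPM in 50 cells and then to the 100-cell levels above, a log2 change of 1.44 from 10 to 100 cells (SE 0.12, adjusted p 9.27e-06 by edgeR's quasi-likelihood test with Benjamini-Hochberg adjustment). IRS4 fell by 1.10 (SE 0.21, adjusted p 0.00148) and TSPAN6 rose by 0.83 (SE 0.16, adjusted p 0.00125). PLS3 rose by 0.44 (SE 0.12, adjusted p 0.0138) and HAND1 fell by 0.62 (SE 0.21, adjusted p 0.0347). CDH2 at −0.49 (adjusted p 0.0699), PFN2 at 0.32 (adjusted p 0.135) and MID1 at −0.20 (adjusted p 0.342) did not pass. The 5 calls of 8 stand against 31.0% of 11514 genes called, and with library totals in place of TMM factors the median over all genes moved from −0.05 to −0.31, the split of all calls from 1568 higher and 1999 lower to 851 and 3119, and PLS3 to 0.17, no longer called. The HAND1 call was lost without any 1 of 4 libraries and the PLS3 call without 1 pool of 10 cells, and IRS4 was at −0.41, still called, with the GC and length trend removed.

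Between 50 and 10 cells, IRS4 fell by 0.74 (SE 0.19, adjusted p 0.0202 by edgeR's quasi-likelihood test with Benjamini-Hochberg adjustment) and NGFRAP1 rose by 0.68 (SE 0.18, adjusted p 0.0223), 2 of 8 genes against 11.2% of 11451. Neither call held without 50-cell library 1 or without 10-cell library 1. Between 100 and 50 cells 0 of 11354 genes passed, with 1005 at an unadjusted p under 0.05 and 30 called by DESeq2. Libraries of the same number deviated together in that comparison, but libraries 1 and 2 also did so across numbers. The pairing by number is therefore uncertain. With the replicate number as a block 1582 genes (13.9%) passed. IRS4 fell by 0.36 (adjusted p 0.0301), NGFRAP1 rose by 0.80 (adjusted p 2.78e-04) and TSPAN6 rose by 0.44 (adjusted p 0.00878) in the blocked fit of edgeR.

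None of the 8 genes passed the threshold between amounts of purified RNA. IRS4 stood at 588 and 1276 CPM in 10 pg, 744 ± 43.2 CPM in 100 pg (SD, n = 3) and 853 ± 199 CPM in 1 ng (SD, n = 3). NGFRAP1 stood at 1491 and 1112 CPM in 10 pg, 1336 ± 77.2 CPM in 100 pg and 1345 ± 182 CPM in 1 ng. The inputs overlapped for both genes. By edgeR's quasi-likelihood test with Benjamini-Hochberg adjustment, 0 of the 8 were called between 1 ng and 100 pg, where 3 of 11469 genes (0.0262%) were called and 34 by DESeq2. Between 1 ng and 10 pg 0 of the 8 were called, where 18.4% of 11087 genes were. The 2 libraries of 10 pg differed widely, with CDH2 at 92.8 and 414 CPM, and TSPAN6 at 231 and 638 CPM, on either side of the 1 ng libraries.

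Whether the ratio of cells to RNA differed between the high pair (100 cells and 1 ng) and the low pair (10 cells and 100 pg) was tested as an interaction in 1 fit. By edgeR's quasi-likelihood test with Benjamini-Hochberg adjustment, the ratio was higher in the high pair for NGFRAP1 by 1.42 on the log2 scale (SE 0.16, adjusted p 1.71e-05), for TSPAN6 by 0.91 (SE 0.19, adjusted p 0.00208) and for PLS3 by 0.68 (SE 0.15, adjusted p 0.0036). It was lower for IRS4, with a difference of −1.29 (SE 0.26, adjusted p 0.00188), and for HAND1, with a difference of −0.99 (SE 0.31, adjusted p 0.03). CDH2 at −0.52 (adjusted p 0.152), PFN2 at 0.48 (adjusted p 0.0687) and MID1 at −0.03 (adjusted p 0.9501) did not pass. The 5 calls of 8 stand against 17.9% of 12192 genes called. With the GC and length trend removed the IRS4 difference was −0.40 and that of HAND1 −0.59, and neither was called; the HAND1 call was also lost without any 1 of 8 libraries. With library totals the median over all genes moved from −0.06 to −0.31 and the split of all calls from 882 higher and 1306 lower to 440 and 1987, with the 5 calls kept.

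**Figure D5:**
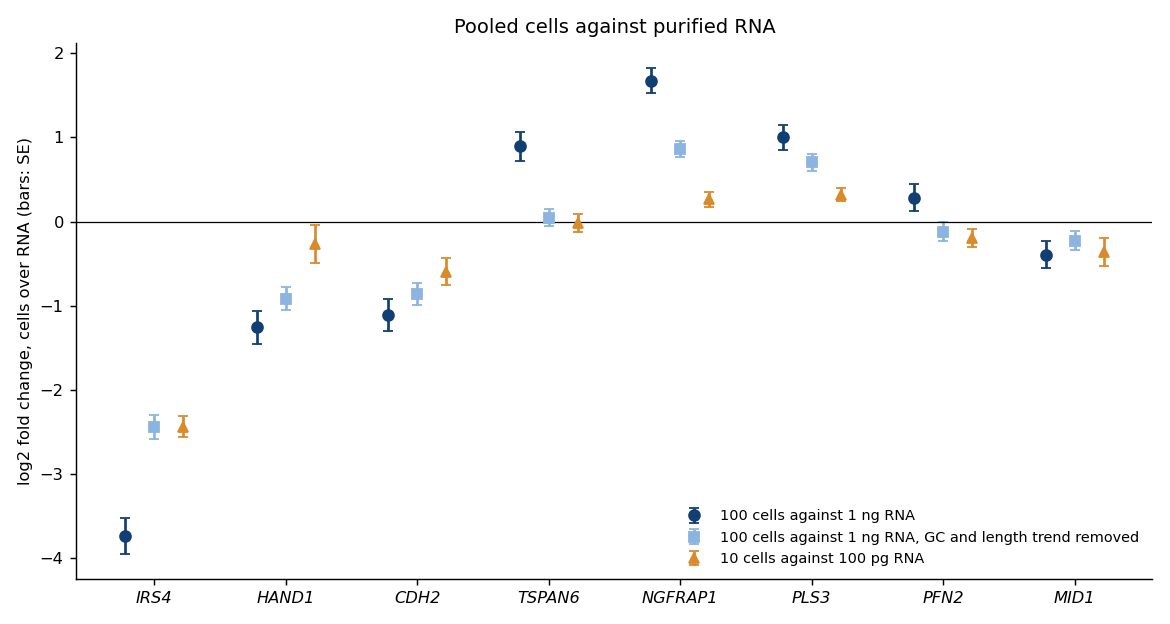
Points are log2 fold changes of each gene in cell pools over purified RNA and bars are standard errors, for 100 cells over 1 ng, the same with the GC and length trend removed, and 10 cells over 100 pg. IRS4 lies lowest at −3.74 and −2.44, and NGFRAP1 lies highest at 1.67 in the larger pair.

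Related genes were also tested between 100 cells and 1 ng RNA, where 29.7% of all genes tested were called higher and 33.1% lower. Of 9 BEX and TCEAL genes tested 7 were called higher and 0 lower, with a median log2 change of 0.93 against −0.03 over all genes tested. WBP5 rose by 2.42 (SE 0.22, adjusted p 3.62e-08) and TCEAL8 by 2.06 (SE 0.22, adjusted p 2.82e-07), and BEX4 rose by 0.68 (adjusted p 0.0013). Of 9 actin-monomer genes 8 were called higher and 1 lower (median 0.80), with TMSB10, a small monomer-binding peptide, up by 2.10 (adjusted p 3.26e-09) and PFN1 up by 1.52 (adjusted p 1.74e-07), while PFN2 itself did not pass. Of 9 bHLH genes 5 were higher and 2 lower, and ID3 rose by 1.07 (adjusted p 1.05e-05). These p-values are from edgeR over all genes tested. The list counts here and below are from the main fit. Removing the GC and length trend, which lowered the changes of NGFRAP1 and TSPAN6 above, was not done for these counts.

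The remaining lists are read against the same shares over all genes. Of 5 cadherin and catenin genes tested 4 were called lower and 1 higher (median −1.94), with JUP (plakoglobin) at −3.74 (SE 0.29, adjusted p 5.22e-09) and VCL (vinculin) at −1.94 (SE 0.17, adjusted p 2.74e-08). Of 8 actin-bundling genes 4 were lower and 1 higher (median −0.57), with ACTN4 at −4.73 (adjusted p 1.47e-10), while PLS3 rose. Of 21 insulin-signalling genes 10 were lower and 3 higher (median −0.63); AKT2 fell by 3.98 (adjusted p 5.57e-10) and INSR rose by 1.81 (adjusted p 8.22e-07). Tetraspanins were split, with 10 of 19 higher and 8 lower. MID1 partners were split as well, at 4 higher and 3 lower of 9, and MID1IP1 fell by 3.69 (edgeR adjusted p 5.22e-09).

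Among 10281 genes over the 13 human groups, IRS4 was most like TGFBR3 (Pearson r 0.980 of log2 summed CPM plus 1) and PHLDB1 (0.979), and both were 0.96 without DG-75. NGFRAP1 was most like DTD1 (0.990, 0.88 without DG-75) and PLS3 most like HDAC8 (0.995, 0.81 without it). Likeness fell most for PFN2, from 0.990 to 0.47 with OSBPL1A and from 0.987 to 0.063 with HDAC8 once DG-75 was left out. The groups share cells of one line and a common total. Over the 39 HEK293T cells with protocol means removed, TSPAN6 was most like SLMO2 at 0.92, which was 0.69 without Smart-Seq2 cell 2, and NGFRAP1 was most like NONO at 0.84 and 0.58.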

How the data were processed

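Expression tables of 63 human libraries gave, per the file headers, a read count and an RPKM value for each gene. Reads were aligned with STAR to hg19 (mm10 for mouse) per the submitters' processing notes; no source here names its version, the counting tool or strand use, so antisense and near-identical genes, among them the BEX and TCEAL family, may share reads. The RPKM values were computed by the authors and deposited, and were used only to compare genes. No entry lacked a gene name.

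From the counts, CPM was the read count scaled to 1000000 gene reads (libraries held 1875471 to 27876258), with exact 95% Poisson and Clopper-Pearson intervals that cover counting error only. Pools and RNA were compared with edgeR 4.0.16 (R 4.3.3; TMM, filterByExpr, quasi-likelihood F test, Benjamini-Hochberg over all genes tested, adjusted p under 0.05), with DESeq2 1.42.0 and limma 3.58.1 on log2(RPKM + 1) as alternatives; the code was tested on simulated data. Single-cell groups were summed and given ratios with 1 CPM added and no test. Named were the 8 genes, their closest sister genes and up to 2 genes per list; the genes and lists were chosen with earlier results of these data known. Same-numbered libraries deviated together in 100 against 50 cells (r 0.138, 0.480 and 0.657). So did 100-cell library 1 with 50-cell library 2 (r 0.425) and 100-cell library 2 with 50-cell library 1 (r 0.120). The other pairs of different number had negative r. The number alone therefore does not set the pairs apart. Promoters came from RefSeq, GRCh38.p14.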

Additional observations from a re-analysis of the deposited data

Results flagged for a closer look

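Several single libraries stood far from the others of their group by a gap test at the 95% level. It was run 56 times, once for each gene in each single-cell group of 4 to 8 cells. Of these tests chance would mark about 1 in 20. For IRS4 these were Smart-Seq2 HEK293T cell 2 at 0.7568 CPM and variant 4 cell 4 at 0 CPM. For TSPAN6 they were Smart-Seq2 cell 2 at 2.081 CPM, variant 2 cell 3 at 66.14 CPM and variant 4 cell 6 at 208.5 CPM. For NGFRAP1 they were Smart-Seq2 cell 2 at 98.57 CPM and DG-75 cell 2 at 2.283 CPM. The others were DG-75 cell 4 for CDH2 at 2.314 CPM, SMART-Seq cell 3 for PFN2 at 165.2 CPM, variant 4 cell 5 for PFN2 at 346.1 CPM and variant 2 cell 6 for MID1 at 26.65 CPM. Smart-Seq2 cell 2 was the lowest cell of its group for 6 of the 8 genes, 3 of them marked by the test, and it also had the fewest genes detected of its group.

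The ratio of cells to RNA differed between the larger and the smaller inputs for 5 genes in edgeR's interaction test. The differences on the log2 scale were −0.9857 for HAND1, −1.29 for IRS4, 1.42 for NGFRAP1, 0.6841 for PLS3 and 0.9061 for TSPAN6.

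Mouse libraries, which enter no comparison above, held reads of the mouse counterparts. Summed over 6 C2C12 myoblast cells and 7 embryonic fibroblasts, Cdh2 stood at 126.8 and 20.8 CPM, Tspan6 at 140.1 and 29 CPM, and Ngfrap1 at 255.8 and 94.83 CPM. Pls3 stood at 520.7 and 206.0 CPM, Pfn2 at 14.5 and 44.96 CPM, and Mid1 at 17.54 and 5.158 CPM. Irs4 and Hand1 had no read in either, which allows up to 0.0703 CPM in C2C12 and 0.0557 CPM in fibroblasts.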

How the results depend on the processing

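Over all alternatives, 197 of the 239 summary values stayed on the same side or within 1.5 times, and 42 moved; of the other values, for single genes or all genes called, 66 moved, 6 changed sign, 36 passed only under an alternative and 51 no longer passed. Where a value moved, the cause was not tested.

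The count of genes over 4-fold apart from Smart-Seq2 moved as follows. For SMART-Seq (2) it was 1 by the median CPM of the cells and by TMM factors, and 1 to 2 with a cell left out, 1 without Smart-Seq2 cell 1. For variant 1 (0) it was 0 to 1 with a cell left out, 1 without its cell 5. For variant 2 (1) it was 0 with 10 CPM added, by median CPM and by mean RPKM, and 0 to 1 with a cell left out; HAND1 by median CPM was 0.64. For variant 3 (1) it was 2 by median CPM, 3 by TMM factors and 1 to 3 with a cell left out. For variant 4 (1) it was 0 by mean RPKM and 0 to 2 with a cell left out.

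The count of the 8 genes called moved as follows. In 1 fit of all 6 input groups it was 1 for 10 cells against 100 pg RNA (3), 1 for 50 against 10 cells (2) and 3 for the interaction (5). With the GC and length trend removed, an alternative added after the data were seen, it was 1 for 100 against 50 cells (0), 1 for 50 against 10 cells, 5 for 1 ng against 10 pg RNA (0) and 3 for the interaction. In 1 ng against 10 pg it put MID1 at −1.6479 and NGFRAP1 at −0.7225, with a median over all genes of −1.16. It was 1 for 100 against 50 cells by DESeq2 and 1 for 50 against 10 cells by limma on RPKM. With a library left out, it ran from 3 to 6 for 100 against 10 cells (5), from 0 to 3 for 50 against 10 cells and from 0 to 4 for 1 ng against 10 pg RNA. Leaving out a 10 pg library assumes that the lone one varies like the 1 ng group; CDH2 then ran from −0.9928 to 1.1560, IRS4 from −0.5140 to 0.5949 and TSPAN6 from −0.5486 to 0.9077.

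With the replicate number as a block, 3 of the 8 genes were called in 100 against 50 cells (2 with the GC and length trend also removed) and 4 in 50 against 10 cells. Of the same-numbered pairs, those of 100 against 50 cells passed the check of deviations (r over 0.1 in all 3). Libraries 1 and 2 of different number also exceeded 0.1 there, at 0.425 and 0.120. In 100 against 10 cells r of the same number was 0.068, 0.213 and 0.355, and in 50 against 10 cells 0.004, 0.250 and 0.332. Other groups were thus taken to share only a number. The block moved all calls from 0 to 1582 for 100 against 50 cells, from 1279 to 2879 for 50 against 10, from 3 to 1 for 1 ng against 100 pg and from 2044 to 0 for 1 ng against 10 pg. Restricted to shared numbers without the block, these were 1 for 1 ng against 100 pg, 0 for 1 ng against 10 pg and 1285 for 10 cells against 100 pg (2252).

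Counts of all genes called that moved over 1.5 times in the fit of all 6 groups were 3849 (7208) for 100 cells against 1 ng, 1117 for 10 cells against 100 pg, 1611 (3567) for 100 against 10 cells, 11 for 100 against 50, 303 for 50 against 10, 6 for 1 ng against 100 pg, 4298 for 1 ng against 10 pg and 761 (2188) for the interaction. DESeq2 gave 30 for 100 against 50 cells, 34 for 1 ng against 100 pg and 3306 for 1 ng against 10 pg; no filter gave 5 for each of the first 2. The GC and length trend removed gave 29 for 100 against 50 cells, 1273 with the block, 4826 for 1 ng against 10 pg and 1427 for the interaction. With a library left out the counts fell to 1252 (without 10-cell library 1) and 1400 (library 2) for 10 cells against 100 pg, 2174 for 100 against 10 cells and 1385 for the interaction (without 100-cell library 1 in both) and 325, 662 and 819 for 50 against 10 cells (without 50-cell library 1, 10-cell library 1 and 10-cell library 3) and 1 for 1 ng against 100 pg (without 1 ng library 2), rose to 43 for 100 against 50 cells (without 100-cell library 3), and ran from 0 to 8516 for 1 ng against 10 pg. Single-cell groups are 1 sample each, so depth, protocol and culture cannot be told apart in their ratios.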

Other observations

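Actin-monomer binding genes outside the 8 were among those that rose: in 100 cells against 1 ng RNA, TMSB4X rose by 2.00 on the log2 scale (SE 0.18, adjusted p 3.95e-08 by edgeR's quasi-likelihood test with Benjamini-Hochberg adjustment). In the same comparison CD81 rose by 2.16 (SE 0.22, adjusted p 1.29e-07) and TSPAN14 fell by 2.33 (SE 0.24, adjusted p 1.44e-07), so tetraspanins changed in both directions. In 10 cells against 100 pg RNA, WBP5 rose by 1.43 (SE 0.15, adjusted p 3.41e-05) and ACTN4 fell by 3.15 (SE 0.26, adjusted p 6.61e-06).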
